A study of Mus musculus with 7 samples.

Results

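Antibody-producing cells and the receptor that carries their IgA into secretions were followed through 6 genes of the inflamed mouse prostate. They were the B cell genes Ms4a1, Cd79a and Cd79b, the plasma cell genes Mzb1 and Jchain, and the epithelial receptor gene Pigr. They were taken by symbol for these roles, with earlier results of these data known, and are 6 of the 16019 genes listed. The list of symbols held 9 genes; the immunoglobulin constant genes Igkc, Ighm and Igha are not analysed here. All 7 libraries came from prostate of mice with experimental autoimmune prostatitis (EAP), an inflammation of the gland raised by immunisation, and no group without the disease is compared. In 4 of them the mice had received LIT-927, a small molecule that neutralises the chemokine CXCL12, injected into the peritoneum at 25 mg/kg per day for 14 days (replicates 1, 2, 3 and 4). In the other 3 the mice had received the solvent methyl-β-cyclodextrin in the same way (replicates 1, 3 and 4, called vehicle). The labels name no strain, sex, age or lobe of the gland, and do not say whether each library is its own animal, so the p-values cover the spread among these libraries, some of which may be technical.

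B cells carry CD20, encoded by Ms4a1, and an antigen receptor whose signalling chains are CD79A and CD79B. When B cells mature into plasma cells they shut down much of this surface programme and secrete antibody; MZB1 is a chaperone of immunoglobulin assembly in the endoplasmic reticulum, and the J chain links IgA or IgM units into polymers. The polymeric immunoglobulin receptor, PIGR, sits on the basal side of epithelial cells, takes up J chain-bearing IgA and IgM, carries them across the cell and releases them into the lumen as secretory antibody. CXCL12 and its receptor CXCR4 hold B cell precursors and plasma cells in their bone marrow niches.

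The 2 sides of this pathway lie on different cells, and the sequence around the start of the gene is shown for 3 of the 6 genes, a plasma cell, a B cell and an epithelial gene. The stretches run from 250 bases before to 50 bases after the RefSeq start (build GRCm38.p6), 5′ to 3′ along the gene, with matches to the motifs searched in capitals. They are chr5:88527848-88528147 on the minus strand for Jchain, chr7:24897247-24897546 on the plus strand for Cd79a and chr1:130826434-130826733 on the plus strand for Pigr.
Jchain: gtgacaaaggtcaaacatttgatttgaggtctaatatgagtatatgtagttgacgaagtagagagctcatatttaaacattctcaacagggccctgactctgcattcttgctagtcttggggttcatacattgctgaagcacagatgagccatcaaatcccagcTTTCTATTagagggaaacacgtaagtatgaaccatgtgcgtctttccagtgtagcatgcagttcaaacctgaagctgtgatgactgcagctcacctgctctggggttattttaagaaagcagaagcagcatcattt
Cd79a: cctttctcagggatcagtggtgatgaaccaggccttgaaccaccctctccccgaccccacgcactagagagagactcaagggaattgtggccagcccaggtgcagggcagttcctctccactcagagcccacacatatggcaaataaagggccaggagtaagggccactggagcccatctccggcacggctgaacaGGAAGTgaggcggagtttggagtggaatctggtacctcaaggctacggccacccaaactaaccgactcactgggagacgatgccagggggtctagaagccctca
Pigr: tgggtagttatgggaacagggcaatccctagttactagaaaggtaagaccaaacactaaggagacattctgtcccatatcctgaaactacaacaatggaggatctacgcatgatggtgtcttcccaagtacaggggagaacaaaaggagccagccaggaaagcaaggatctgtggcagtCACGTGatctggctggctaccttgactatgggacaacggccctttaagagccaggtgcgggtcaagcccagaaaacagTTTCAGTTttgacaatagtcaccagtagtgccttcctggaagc

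Motifs were searched on both strands, and positions are counted with the first transcribed base as 0. In Pigr the E-box CACGTG began at position -71 and the interferon regulatory factor motif AANNGAAA, read on the opposite strand, at position 7, inside the transcribed part; an E-box and an interferon response element at similar places are known from the human gene. In Jchain the only match was AANNGAAA, on the opposite strand from position -86. Cd79a held the ETS motif GGAAGT at position -54. Among 27025 promoters of the same length, 7.24% held CACGTG, 24.2% AANNGAAA and 24.1% GGAAGT. The octamer ATTTGCAT, held by 1.75% of promoters, had no match in these 3 windows. A match is a string of letters, not a measured binding site.

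In the genome of the files (mm10) and the GENCODE M21 annotation, all 6 are protein-coding genes: Pigr at chr1:130826684-130852249 (plus strand), Jchain at chr5:88519809-88527891 (minus), Cd79a at chr7:24897381-24902197 (plus), Cd79b at chr11:106311341-106314762 (minus), Mzb1 at chr18:35647267-35649367 (minus) and Ms4a1 at chr19:11249675-11266241 (minus). Ms4a1 overlaps 4930526L06Rik on the other strand and Mzb1 overlaps SPATA24 on its own strand, and the sources used here do not say how reads shared by such genes were counted.

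Levels are given as deposited, in FPKM (fragments scaled to gene length and to the fragments of the library), so they can be set side by side between genes. The libraries held 32100860 to 35292137 fragments, and whole fragments behind each value were recovered from the steps between low values. The LIT-927 and vehicle groups did not differ in any of the 16019 genes at a Benjamini-Hochberg adjusted p under 0.05 (limma on log2(FPKM + 1); 0.0% called), and 589 genes (3.68%) had an unadjusted p under 0.05. Defining genes of prostate lumen were present in every library: Pbsn, encoding probasin, had 3823, 129, 233 and 8963 FPKM in LIT-927 replicates 1 to 4, against 11311, 3096 and 1283 FPKM in vehicle replicates 1, 3 and 4. Transcripts of the seminal vesicle, a neighbouring gland, summed to more than those of prostate lumen in every library. The 8 genes of that list summed to 222775, 299711, 301495 and 142402 FPKM in LIT-927 replicates 1 to 4, against 51017, 273784 and 563781 FPKM in vehicle replicates 1, 3 and 4, where all genes together summed to 557132, 588838, 788994 and 491700 FPKM with LIT-927, against 445417, 659974 and 816215 FPKM with vehicle. The 10 prostate luminal genes summed to 6849, 7791, 166898 and 17491 FPKM with LIT-927, against 21680, 75188 and 10336 FPKM with vehicle. In LIT-927 replicate 3 this sum was led by Sbp (114916 FPKM) and Spink1 (50277 FPKM). Vehicle replicate 3 had 53139 FPKM of Sbp and 14644 FPKM of Spink1. Genes of the list did not go together: Tgm4 was lowest in LIT-927 replicate 3 (26.0 FPKM) and highest in vehicle replicate 1 (8361 FPKM). Svs2, a seminal vesicle secretory gene, was present at no less than 26188 FPKM in any library. The libraries also differed in tissue make-up within both groups. Akr1b7, an abundant transcript of the vas deferens, had 17099, 8867, 15.9 and 5998 FPKM with LIT-927, against 8408, 84.5 and 1597 FPKM with vehicle. Upk1a, a urothelial membrane gene, had 6.64, 10.1, 253 and 9.56 FPKM with LIT-927, against 9.78, 172 and 2.64 FPKM with vehicle, so replicate 3 of each group stood apart from the rest.

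Among the 6 genes, transcripts of B cells were scarce, those of plasma cells more abundant and Pigr the most abundant on average. Over all 7 libraries the mean level was 73.4 FPKM for Pigr, 13.9 FPKM for Jchain, 2.82 FPKM for Mzb1, 0.783 FPKM for Cd79b, 0.673 FPKM for Cd79a and 0.136 FPKM for Ms4a1. Neighbours in this order overlapped in their ranges. Jchain exceeded Mzb1 in 7 of 7 libraries and Cd79a exceeded Ms4a1 in 7 of 7, whereas Cd79b exceeded Cd79a in 4 of 7 and Pigr exceeded Jchain in only 2 of 7. Pigr therefore led the order of means through 2 libraries. A level of at least 1 FPKM in 3 or more libraries was reached by Pigr, Jchain and Mzb1.

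**Figure D1:**
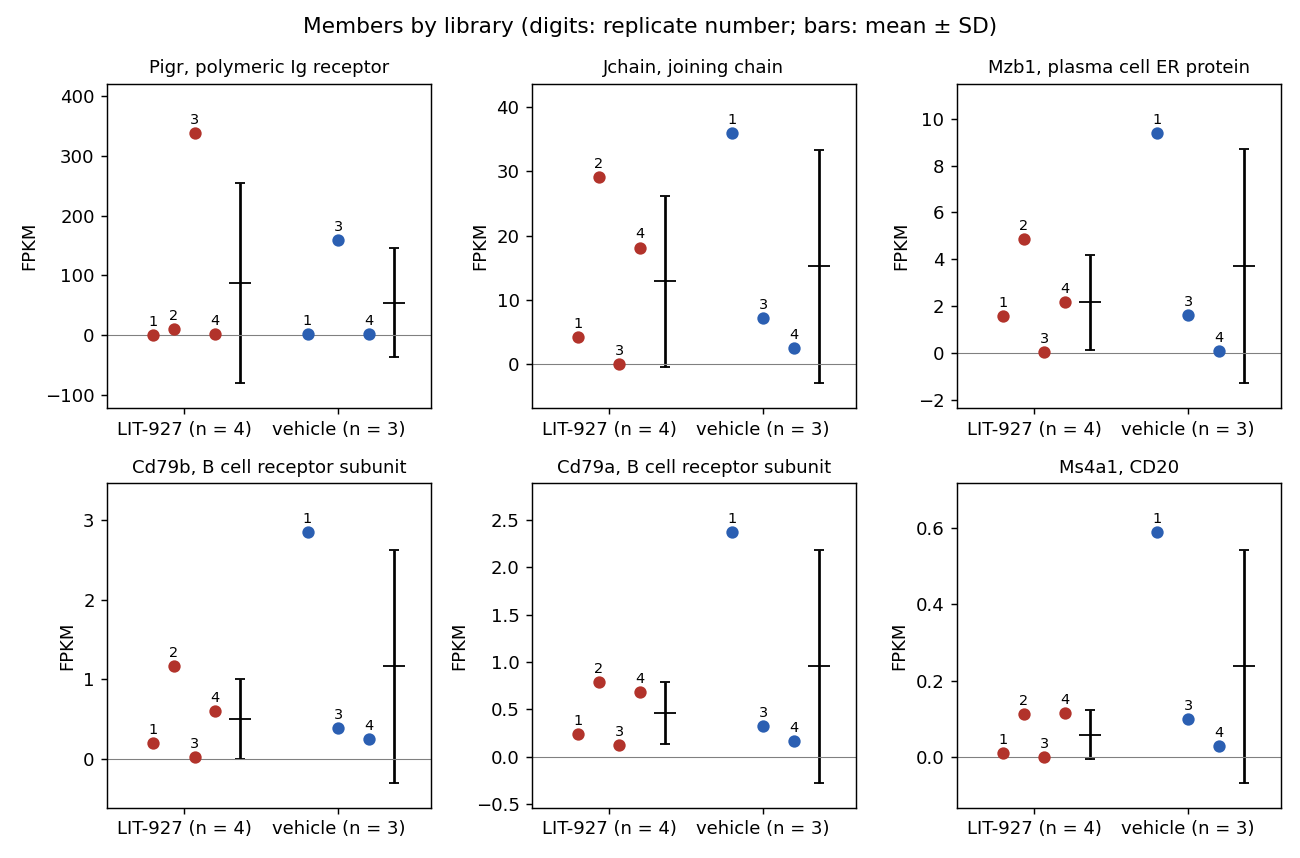
FPKM of the 6 genes in each library (points, numbered by replicate) with the mean and SD of each group beside them (4 LIT-927 and 3 vehicle libraries; linear axes that differ between panels). Pigr is high in replicate 3 of both groups, and the other genes are highest in vehicle replicate 1 and lowest in LIT-927 replicate 3.

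Transcripts of B cells were near the limit of detection in most libraries and most abundant in vehicle replicate 1. Ms4a1 had 0.0103, 0.113, 0 and 0.116 FPKM in LIT-927 replicates 1 to 4, against 0.588, 0.0991 and 0.0285 FPKM in vehicle replicates 1, 3 and 4. These values rest on 1, 11, 0 and 12 fragments with LIT-927, against 59, 10 and 3 fragments with vehicle, and the 0 allows a level of up to 0.0314 FPKM (3 fragments, counting error only). Vehicle replicate 1 was above all others, while the remaining vehicle libraries lay among those of the LIT-927 group.

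Cd79a had 0.244, 0.794, 0.124 and 0.687 FPKM with LIT-927, against 2.37, 0.324 and 0.170 FPKM with vehicle. Cd79b, its partner in the receptor, had 0.199, 1.17, 0.0253 and 0.606 FPKM with LIT-927, against 2.85, 0.384 and 0.253 FPKM with vehicle. The groups overlapped for both. The ratio of Cd79b to Cd79a lay between 0.814 and 1.49 in the 6 libraries other than LIT-927 replicate 3, where 1 and 4 fragments gave 0.203.

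None of the 3 B cell genes passed the test. Ms4a1 averaged 0.0597 ± 0.0632 FPKM in the LIT-927 group (SD, n = 4) and 0.239 ± 0.305 FPKM in the vehicle group (SD, n = 3), a difference of -0.20 in log2(FPKM + 1) with a 95% interval of -0.53 to 0.13. For Cd79a the difference was -0.27 (-1.13 to 0.58), and for Cd79b -0.39 (-1.38 to 0.60). The limma adjusted p was 0.998 for each, and the exact two-sided permutation p was 0.343 for Ms4a1, 0.629 for Cd79a and 0.514 for Cd79b, where 35 divisions of the libraries allow no p below 0.0286. Without vehicle replicate 1 the difference was 0.20 for Cd79a, 0.13 for Cd79b and -0.01 for Ms4a1, so the direction of the first pair and the size of all 3 rest on that library. Without both replicates 3 it was -0.35 for Cd79a, -0.45 for Cd79b and -0.24 for Ms4a1. With a pseudocount of 0.1 and with voom, which compress low values less, the differences were -0.79 and -1.94 for Ms4a1, -0.89 and -1.26 for Cd79b and -0.44 and -0.47 for Cd79a, still not called. In bulk tissue, fewer cells of a type and less RNA per cell cannot be told apart.

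The plasma cell genes spanned a wider range. Jchain had 4.22, 29.2, 0.0889 and 18.1 FPKM in LIT-927 replicates 1 to 4, from 290, 2003, 6 and 1330 fragments, against 36.0, 7.17 and 2.53 FPKM in vehicle replicates 1, 3 and 4, from 2549, 510 and 188 fragments. Vehicle replicate 1 was again highest and LIT-927 replicate 3 lowest, and the LIT-927 group reached nearly as high as the vehicle group. Mzb1 had 1.55, 4.86, 0.0344 and 2.15 FPKM with LIT-927, against 9.40, 1.63 and 0.0938 FPKM with vehicle, with a single fragment in LIT-927 replicate 3 and 3 fragments in vehicle replicate 4.

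Jchain averaged 12.9 ± 13.3 FPKM in the LIT-927 group (SD, n = 4) and 15.2 ± 18.1 FPKM in the vehicle group (SD, n = 3), a difference of -0.43 in log2(FPKM + 1) with a 95% interval of -3.31 to 2.45. Mzb1 averaged 2.15 ± 2.02 FPKM in the LIT-927 group (SD, n = 4) and 3.71 ± 4.99 FPKM in the vehicle group (SD, n = 3), a difference of -0.23 (-2.15 to 1.69). Neither passed the test (limma adjusted p = 0.998 and exact permutation p = 0.8 for each). Both differences changed sign without vehicle replicate 1, to 0.49 for Jchain and 0.64 for Mzb1, and without LIT-927 replicate 3, to 0.50 for Jchain and 0.22 for Mzb1. With a pseudocount of 0.1 and with voom the difference of Jchain was -0.95 and -1.13, still not called. The intervals leave room for large changes either way.

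On the log2(FPKM + 1) scale Pigr varied more than any other of the 6 genes, and did so inside both groups. It had 0.580, 9.99, 338.6 and 1.56 FPKM in LIT-927 replicates 1 to 4, from 73, 1256, 41842 and 210 fragments, against 1.65, 159.7 and 1.68 FPKM in vehicle replicates 1, 3 and 4, from 214, 20805 and 228 fragments. Replicate 3 of each group was far above the others, and the highest library exceeded the lowest 583-fold. Pigr averaged 87.7 ± 167 FPKM in the LIT-927 group (SD, n = 4) and 54.3 ± 91.2 FPKM in the vehicle group (SD, n = 3), a difference of 0.09 in log2(FPKM + 1) with a 95% interval of -4.90 to 5.07 (limma adjusted p = 0.998; exact permutation p = 0.914). The sign of so small a difference was not fixed: it was -0.01 with a pseudocount of 0.1 and -0.04 with voom on whole fragments. Leaving out LIT-927 replicate 3 gave -1.56, leaving out vehicle replicate 3 gave 2.06 and leaving out vehicle replicate 1 or 4 gave -0.90. A fit with library weights, which counted LIT-927 replicate 3 least and vehicle replicate 3 most in their groups, gave -4.65. Without both replicates 3 the difference was 0.41, and the spread among the remaining libraries still exceeded it.

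Of the 6 genes, 5 had a lower mean of log2(FPKM + 1) with LIT-927, beside 44.5% of all genes (49.7% after median-of-ratios scaling, which keeps the same 5). None had all LIT-927 libraries below all vehicle libraries, beside 2.12% of all genes, and none had them all above, beside 1.08%. The median difference of the 6 was -0.25, and -0.21 after that scaling, against 0.02 and 0.00 over all genes. The count of lower genes was 2 without vehicle replicate 1 and 3 without both replicates 3.

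**Figure D2:**
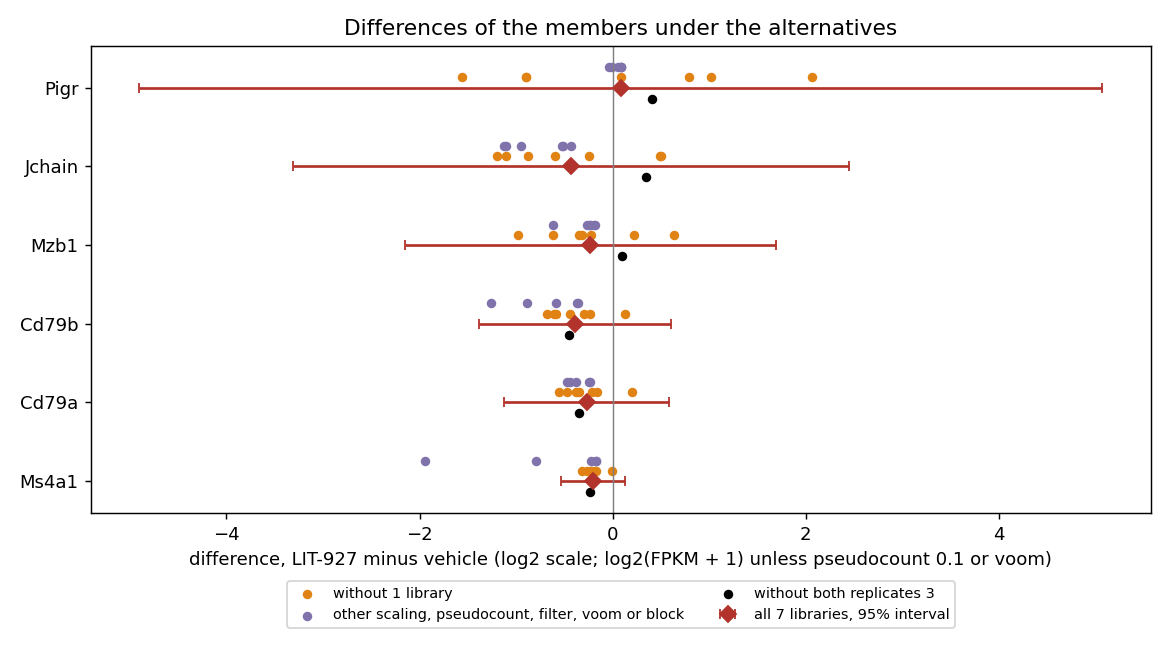
Difference on the log2 scale, LIT-927 minus vehicle, for each gene: the value over all 7 libraries with its 95% interval (red) and the values under the alternatives (points), of which the fit with library weights is left out. All intervals include 0, and leaving out single libraries carries Pigr from -1.56 to 2.06 and Jchain from -1.20 to 0.50.

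The 5 lymphoid genes kept nearly the same order of libraries. Jchain, Mzb1 and Cd79a ranked the 7 libraries identically, from vehicle replicate 1 at the top through LIT-927 replicates 2 and 4, vehicle replicate 3, LIT-927 replicate 1 and vehicle replicate 4 to LIT-927 replicate 3. Over their 10 pairs, Pearson's r of log2(FPKM + 1) ran from 0.708 (Ms4a1 with Jchain) to 0.983 (Cd79a with Cd79b), with exact permutation p between 0.000397 and 0.0107 and Benjamini-Hochberg adjusted p over the 10 pairs between 0.00132 and 0.0107 (n = 7). Spearman's rho ran from 0.929 to 1.0, with exact permutation p between 0.000397 and 0.00675 and adjusted p between 0.00132 and 0.00675. Without the 2 libraries farthest from the median of the first gene of a pair, r was 0.666 to 0.969, and after median-of-ratios scaling it was 0.701 to 0.975. The libraries span both treatments, and each group alone has too few for a correlation; all points share the make-up of the tissue sampled, whose part in this was not tested.

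The proportion between the plasma cell genes was less even. Jchain exceeded Mzb1 by 2.72, 5.995, 2.59 and 8.43 times in LIT-927 replicates 1 to 4, against 3.83, 4.40 and 27.0 times in vehicle replicates 1, 3 and 4. The last of these rests on 3 fragments of Mzb1 and the 2.59 of LIT-927 replicate 3 on 1, so neither extreme is well determined.

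Pigr did not share that order, and since 2 of its libraries lay far above the others, no pooled correlation with the lymphoid genes is given. Among those others LIT-927 replicate 2 was highest, at 9.99 FPKM. In LIT-927 replicate 3 Pigr exceeded Jchain 3808 times and in vehicle replicate 3 it exceeded Jchain 22.3 times. In the remaining libraries the ratio was 0.137, 0.342 and 0.0862 with LIT-927 (replicates 1, 2 and 4) and 0.0458 and 0.662 with vehicle (replicates 1 and 4). The libraries with most receptor transcript were thus not those with most J chain transcript.

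**Figure D3:**
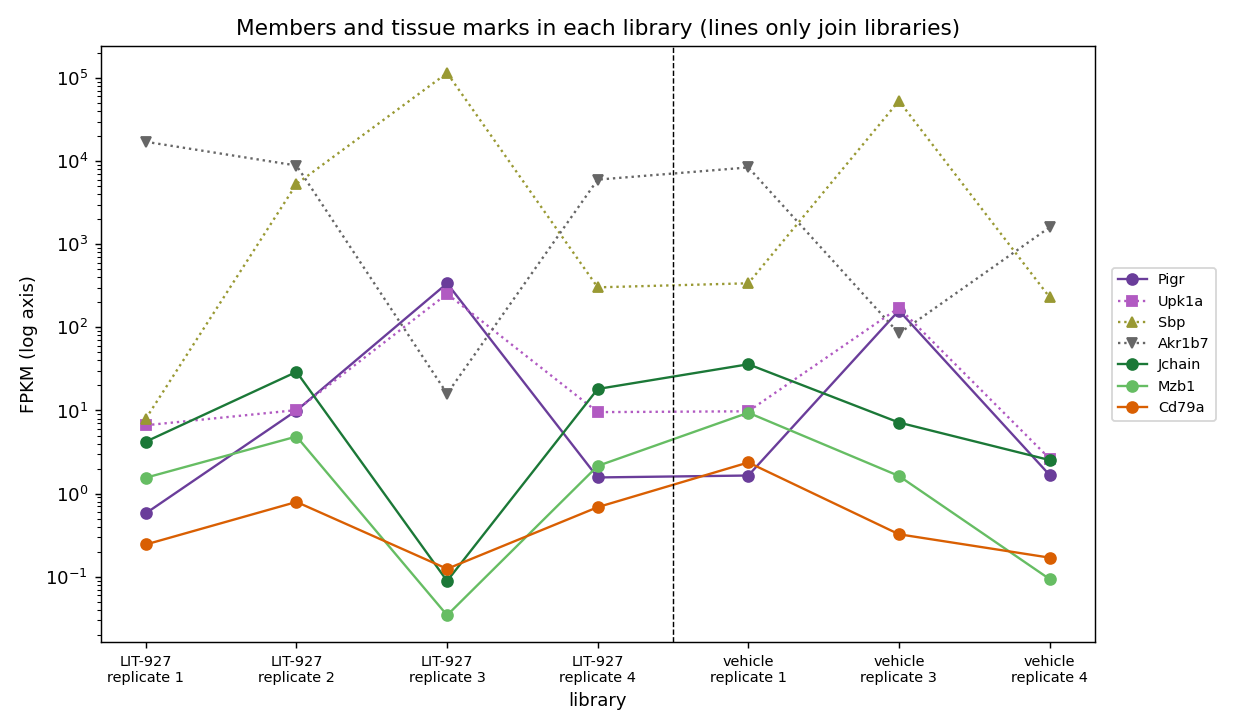
FPKM on a log axis for Pigr, Jchain, Mzb1 and Cd79a (solid lines) and for the tissue marks Upk1a, Sbp and Akr1b7 (dotted lines) in each library, LIT-927 on the left and vehicle on the right; lines only join the points of a gene. Pigr, Upk1a and Sbp peak in replicate 3 of both groups, where Akr1b7 is lowest, and the lymphoid genes are lowest in LIT-927 replicate 3.

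The same 2 libraries were highest for several epithelial genes. Sbp, encoding a spermine-binding secretory protein of the mouse prostate, had 8, 5316, 114916 and 303 FPKM with LIT-927, against 339, 53139 and 232 FPKM with vehicle. Of the 11060 genes with a mean of at least 1 FPKM, those most like Pigr by Pearson's r over the 7 libraries were Spink5 (0.999), a protease inhibitor of epithelia, Crabp1 (0.997), which binds retinoic acid, and Gm7714 (0.996). Such values are set largely by the 2 high libraries and are given as a description. LIT-927 replicate 2 came next in level for Pigr, Sbp, Spink5, Crabp1 and Gm7714. Spink5 had 0.0178, 11.4, 561.5 and 0.700 FPKM with LIT-927, against 0.805, 280.6 and 0.494 FPKM with vehicle.

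Jchain was most like Ccdc157 (0.990), Tnmd (0.972) and Dxo (0.972), and Mzb1 was most like Syn2 (0.984), Neurl2 (0.981) and Pdgfa (0.980). After median-of-ratios scaling r with Jchain was 0.424 for Ccdc157 and 0.202 for Dxo but 0.941 for Tnmd, the gene of tenomodulin in tendon and connective tissue. With Mzb1 it was 0.976 for Syn2, a synaptic vesicle gene, 0.924 for Neurl2 and 0.908 for Pdgfa, a growth factor gene. None of these 6 is a marker of the B lineage.

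The neighbours of Pigr on chromosome 1 include a second receptor for IgA and IgM. Fcamr lies 11943 bases before Pigr on the same strand and had 0.0328, 0.106, 2.78 and 0.0307 FPKM with LIT-927, against 0.143, 1.15 and 0.00758 FPKM with vehicle, again highest in replicate 3 of each group. Fcmr, the IgM receptor gene of lymphocytes, lies 13419 bases after Pigr and had 0, 0.0411, 0.0209 and 0.0577 FPKM with LIT-927, against 0.299, 0 and 0 FPKM with vehicle. It was thus highest in vehicle replicate 1, like the B cell genes, although it rests on few fragments.

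The wider machinery of immunoglobulin transport showed no shared direction. Of 14 measured genes, 5 had a lower and 9 a higher mean with LIT-927, with 7 lower after median-of-ratios scaling, 0 called and a median difference of 0.06 (0.01 after scaling). The list includes Pigr, which is among the 9. For this and all later lists, 44.5% of all genes had a lower mean (49.7% after scaling). Of all genes, 3.68% had an unadjusted p under 0.05 in limma. Vesicle genes that act in recycling and fusion were abundant everywhere: Vamp8 had 157 to 226 FPKM with LIT-927 and 112 to 204 FPKM with vehicle, and Rab11a had 40.0 to 54.6 FPKM with LIT-927 and 43.6 to 59.6 FPKM with vehicle. Rab17, a small GTPase of transcytosis in polarised epithelium, had 7.90, 4.65, 19.6 and 3.67 FPKM with LIT-927, against 5.05, 12.1 and 0.863 FPKM with vehicle. Fcgrt, the receptor that carries and recycles IgG, had 11.1, 10.7, 2.14 and 13.6 FPKM with LIT-927, against 26.2, 14.4 and 7.30 FPKM with vehicle, lowest in LIT-927 replicate 3. Receptor and transport genes thus did not all peak in the same libraries.

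Signals known to raise Pigr expression in epithelia, among them interferon-gamma and tumour necrosis factor, were measured through 16 of 18 listed genes. Of these, 12 had a lower mean with LIT-927 (13 after median-of-ratios scaling), with 0 called and a median difference of -0.15 (-0.17). The receptor gene Ifngr1 had 25.8, 19.9, 5.47 and 27.9 FPKM with LIT-927, against 40.9, 18.4 and 12.8 FPKM with vehicle. Irf2, a transcription factor of the interferon regulatory factor family, had 2.80, 2.82, 17.1 and 2.52 FPKM with LIT-927, against 2.86, 8.16 and 1.76 FPKM with vehicle. Ifngr1 was thus lowest, and Irf2 highest, in the library richest in Pigr.

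**Figure D4:**
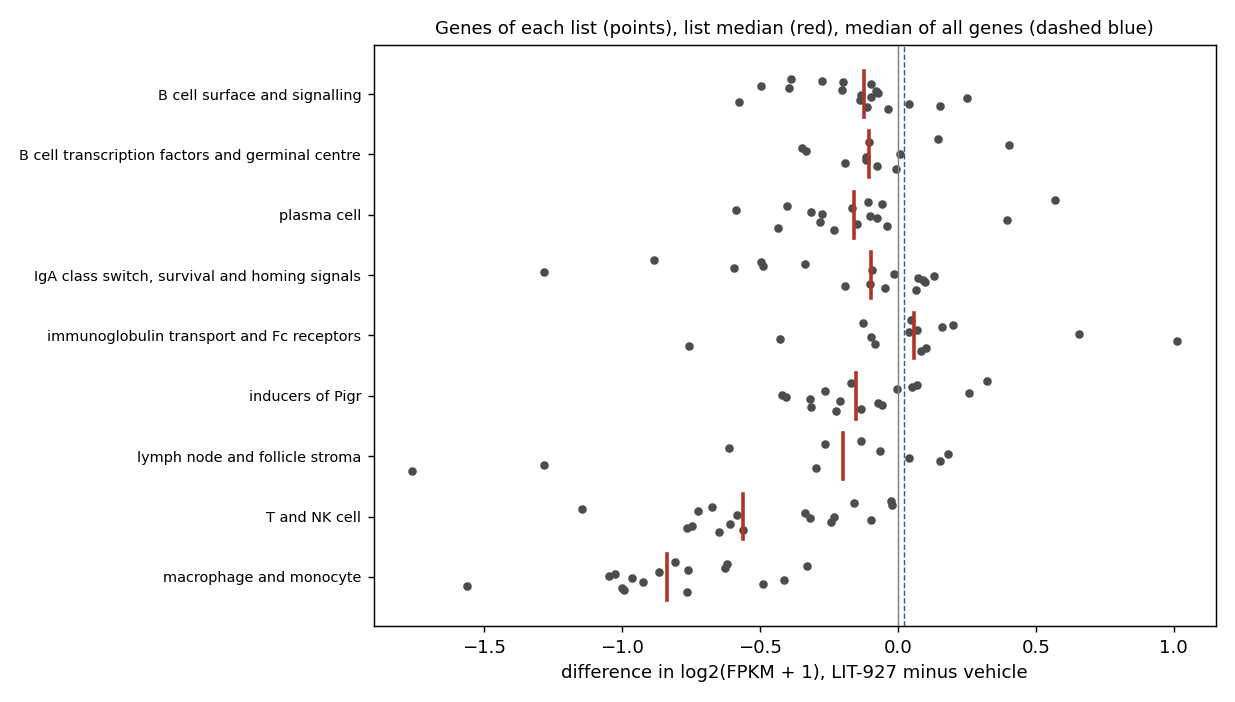
Difference in log2(FPKM + 1), LIT-927 minus vehicle, for each measured gene of 9 lists (points), the median of each list (red) and the median of all genes (dashed blue, 0.02). Points of the T and NK cell and of the macrophage lists all lie below 0, while the B cell, plasma cell and transport lists hold points on both sides of it.

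Genes of the B lineage differed widely in level. Of 18 measured genes of B cell surface and signalling, 15 had a lower mean with LIT-927, with 0 called, 2 with an unadjusted p under 0.05 and a median difference of -0.12. Ms4a1, Cd79a and Cd79b are among these 15, so the count partly repeats the results given above. Cd37, a tetraspanin of mature B cells and other leukocytes, averaged 0.506 ± 0.261 FPKM in the LIT-927 group (SD, n = 4) and 1.28 ± 0.672 FPKM in the vehicle group (SD, n = 3), a difference of -0.57 that was not called (limma adjusted p = 0.998). Blnk, an adaptor of the B cell receptor, had 26.8 to 39.2 FPKM with LIT-927 and 13.7 to 43.6 FPKM with vehicle, far above the receptor genes themselves. Of 11 B cell transcription factor and germinal centre genes, 8 had a lower mean, with 0 called, 1 at an unadjusted p under 0.05 and a median of -0.11; the coactivator gene Pou2af1 had 0.131, 0.477, 0.0121 and 0.268 FPKM with LIT-927, against 0.960, 0.253 and 0.0773 FPKM with vehicle.

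In the plasma cell list, 14 of 16 genes had a lower mean with LIT-927, with 0 called, 1 with an unadjusted p under 0.05 and a median difference of -0.16. Jchain and Mzb1 are among these 14. Levels differed widely between its genes. Tnfrsf17, the survival receptor BCMA, had at most 0.0452 FPKM with LIT-927 and at most 0.0877 FPKM with vehicle, and Irf4, which drives plasma cell formation, had 0.0575, 0.147, 0.0130 and 0.228 FPKM with LIT-927, against 0.453, 0.0987 and 0.0474 FPKM with vehicle. Sdc1, the surface marker syndecan-1, which epithelia are known to express too, had 6.65, 6.09, 12.8 and 7.996 FPKM with LIT-927, against 12.3, 18.2 and 4.22 FPKM with vehicle. Genes of protein secretion in the list were abundant and followed other libraries. Xbp1, a transcription factor of secretory cells, had 113, 129, 129 and 119 FPKM with LIT-927, against 92.3, 119 and 72.4 FPKM with vehicle, and Creld2, of the endoplasmic reticulum, had 114, 47.1, 47.6 and 489 FPKM with LIT-927, against 359, 124 and 61.9 FPKM with vehicle. Secretory epithelium is known to express such genes too.

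The signals that call, switch and keep IgA plasma cells were measured through 16 of 21 listed genes, of which 11 had a lower mean with LIT-927, 0 were called, 4 had an unadjusted p under 0.05 and the median difference was -0.10. Cxcl13, which draws B cells into follicles, had 1.69, 2.05, 0.536 and 2.99 FPKM with LIT-927, against 8.89, 7.52 and 2.22 FPKM with vehicle, a difference of -1.28 (SE 0.48; limma adjusted p = 0.998). The genes of the gut-homing integrin were low throughout. Itga4 had 0.0718, 0.0811, 0.0236 and 0.247 FPKM with LIT-927, against 0.584, 0.248 and 0.367 FPKM with vehicle, every LIT-927 library being below every vehicle library. This held for 2.12% of all genes, and Itga4 was chosen after its values were seen. Itgb7 averaged 0.219 ± 0.0774 FPKM in the LIT-927 group (SD, n = 4) and 0.754 ± 0.432 FPKM in the vehicle group (SD, n = 3). Neither was called (limma adjusted p = 0.998), and T cells express both as well.

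Lymph node and follicle stroma genes were lower on average in 7 of 10 cases, with a median of -0.20, 0 called and 3 at an unadjusted p under 0.05. Ccl21a, a chemokine of lymphatic vessels and T cell zones, had 8.64, 5.25, 3.30 and 23.0 FPKM with LIT-927, against 56.7, 28.9 and 14.8 FPKM with vehicle. Ltb, encoding lymphotoxin-beta, averaged 0.942 ± 0.165 FPKM in the LIT-927 group (SD, n = 4) and 2.05 ± 0.873 FPKM in the vehicle group (SD, n = 3). Every LIT-927 library was below every vehicle library for Ltb, as for 2.12% of all genes. The summed level of the 10 genes was 12.03, 11.2, 4.87 and 28.9 FPKM with LIT-927, against 70.6, 39.3 and 20.2 FPKM with vehicle, highest in vehicle replicate 1 as the B cell genes were. Ccl21a gave 56.7 FPKM of the sum there. LIT-927 replicate 2, next to the highest for Cd79a and Cd79b, was next to the lowest in this sum. Whether pieces of lymphoid tissue had part in these levels was not tested. Of 11 mucosal barrier genes, 8 had a lower mean (9 after scaling), with 0 called, 2 at an unadjusted p under 0.05 and a median of -0.08.

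The T and NK cell genes followed other libraries than the B lineage genes. The 17 T and NK cell genes summed to 3.20, 4.47, 12.03 and 3.96 FPKM with LIT-927, against 12.07, 10.04 and 30.1 FPKM with vehicle. Vehicle replicate 4, with few B cell and plasma cell transcripts, thus held the most. LIT-927 replicate 3, lowest for those transcripts, was close to vehicle replicate 1 in this sum. Its sum was led by Gzmb (4.24 FPKM), Gzma (2.58), Cd3g (1.95) and Nkg7 (1.76), which had 0.177, 1.31, 1.65 and 1.02 FPKM in vehicle replicate 1. All 17 T and NK cell genes had a lower mean with LIT-927 (median -0.56), as had all 16 macrophage and monocyte genes (median -0.84), beside 44.5% of all genes. In these lists 0 were called, and 8 and 7 genes had an unadjusted p under 0.05 in limma, beside 3.68% of all genes. The macrophage genes summed to 121, 124, 54.4 and 165 FPKM with LIT-927, against 443, 155 and 257 FPKM with vehicle, highest in vehicle replicate 1 and lowest in LIT-927 replicate 3, as were the 5 lymphoid genes. The libraries between these ends were ordered otherwise. Vehicle replicate 4 was next to the highest in this sum but next to the lowest for Jchain, Mzb1 and Cd79a. The part of the macrophage genes in the results was not tested.

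Marks of the tissue pieces varied beside the 6 genes and their part in the results was not tested. The summed urothelial level was 36.4, 36.0, 366 and 71.0 FPKM with LIT-927, against 45.7, 439 and 30.9 FPKM with vehicle, with 7 of 8 genes lower on average (median -0.19). Upk1a gave 253 FPKM of the sum in LIT-927 replicate 3. In vehicle replicate 3 Upk1a gave 172 FPKM and Psca 171 FPKM. The fibroblast genes, all 10 lower on average (median -0.94), summed to 156, 134, 72.4 and 245 FPKM with LIT-927, against 505, 294 and 92.9 FPKM with vehicle. Of seminal vesicle genes 5 of 8 had a lower mean (median -1.62), of prostate luminal genes 8 of 10 (median -0.52), of basal epithelial genes 8 of 8 (median -0.63) and of vas deferens and epididymis genes 0 of 5 (median 0.92), with 0 called in each.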

How the data were processed

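The authors deposited 1 table of FPKM per library, which per the labels come from TRIzol-extracted prostate RNA made into libraries with a VAHTS Universal V6 kit. Per the submitters' processing notes the tools were fastp, HISAT2 and HTSeq with build mm10; versions, roles, annotation and strand setting are not given in the notes or labels. The file headers call the values expression and name no unit. It follows from the values: low values are whole multiples of a step set by gene length and library, and all values of the 16019 genes came out as whole fragments within 0.01.

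Differences are LIT-927 minus vehicle in log2(FPKM + 1), which understates the change of low genes, from limma 3.58.1 (R 4.3.3) with a mean-variance trend over all 7 libraries, no covariate and no filter, adjusted over all genes. A gene was called at an adjusted p under 0.05. Exact permutation tests were two-sided. Alternatives were upper-quartile or median-of-ratios scaling, a pseudocount of 0.1, at least 1 FPKM in 3 libraries, voom on whole fragments, library weights (gene-by-gene, as the default estimate did not converge), a replicate block and leaving out libraries. No pair of libraries held identical values. FPKM are relative to the whole library, and median-of-ratios factors ran from 0.813 to 1.158 with LIT-927 and from 0.665 to 1.306 with vehicle.

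The 6 genes and all lists were chosen with earlier results of these data known. Genes named from a list are its up to 4 with the highest mean FPKM; Fcamr, Fcmr, Rab17, Fcgrt, Irf2, Tnfrsf17, Irf4, Sdc1, Itga4 and Itgb7 were chosen after their values were seen. Pbsn, Akr1b7, Upk1a, Sbp and Svs2 mark the tissue piece. Genes like a member are the 3 of mean at least 1 FPKM with the highest r. Promoters are from RefSeq and are printed for 3 of the 6 genes. The search passed over chromosome 18, where Mzb1 lies. The code was tested on simulated data. Tables and figures used matplotlib 3.10.9, SciPy 1.17.1, pandas 2.3.3 and NumPy 2.4.6 in Python 3.11.15.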

Additional observations from a re-analysis of the deposited data

Results flagged for a closer look

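Among the 4 LIT-927 libraries, 10 of the 41 genes examined had 1 library whose gap to the nearest other library took more of the whole range than Dixon's critical value for 4 values at 95% allows, where chance gives about 1 in 20 groups. That rate is no measure for these genes: Spink5, Crabp1 and Gm7714 were taken for their likeness to Pigr, Fcamr, Irf2 and Itgb7 were chosen after their values were seen, and Upk1a and Sbp were known to mark the tissue piece. Of these, 8 had their highest value in replicate 3. Pigr had 338.6 FPKM there, against 0.580 to 9.99 FPKM in the other LIT-927 libraries. Sbp had 114916 FPKM, Upk1a 253 FPKM, Irf2 17.1 FPKM and Fcamr 2.78 FPKM in that library. The genes most like Pigr had 561.5 FPKM (Spink5), 290.2 FPKM (Crabp1) and 215.3 FPKM (Gm7714) in it. Vehicle replicate 3 was the highest vehicle library for each of these 8 genes, but a group of 3 was not examined in this way. In the same LIT-927 library Itgb7 was lowest, at 0.104 FPKM, against 0.241 to 0.268 FPKM in the others. Creld2 was highest in LIT-927 replicate 4, at 489.3 FPKM, against 47.1 to 113.7 FPKM in the others.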

How the results depend on the processing

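No gene was called in any setting but library weights, which called 466 genes. These weights ran from 0.181 (vehicle replicate 4) to 3.80 (LIT-927 replicate 1). The libraries richest in Pigr had weights of 0.269 (LIT-927 replicate 3) and 3.41 (vehicle replicate 3). Under them Cd79a had a difference of 0.00, Jchain 0.17, Mzb1 0.12 and Pigr -4.65 (limma adjusted p = 0.094), and 3 of the 6 genes were lower; the cause was not tested. With a pseudocount of 0.1 and with voom, Pigr was -0.01 and -0.04, Ms4a1 -0.79 and -1.94, Cd79b -0.89 and -1.26, Cd79a -0.44 and -0.47, Jchain -0.95 and -1.13, and Mzb1 -0.23 and -0.27. Without both replicates 3, Jchain was 0.34 and Mzb1 0.10, with 3 genes lower. Leaving out each library in turn gave -0.56 to 0.20 for Cd79a, -0.68 to 0.13 for Cd79b, -0.32 to -0.01 for Ms4a1, -1.20 to 0.50 for Jchain, -0.98 to 0.64 for Mzb1 and -1.56 to 2.06 for Pigr, with 2 to 6 genes lower. After median-of-ratios scaling the same gave -0.44 to 0.14 for Cd79a, -0.57 to 0.04 for Cd79b, -0.26 to -0.02 for Ms4a1, -1.20 to 0.38 for Jchain, -0.84 to 0.58 for Mzb1 and -1.65 to 1.99 for Pigr, again with 2 to 6 lower; among these, Mzb1 was 0.25 without LIT-927 replicate 3, Jchain was 0.23 without vehicle replicate 1, and Pigr was -1.03 without vehicle replicate 1 and -0.71 without vehicle replicate 4. Of 129 alternative values of the 6 genes, 103 kept their direction and 26 reversed. Median-of-ratios scaling raised the genes with an unadjusted p under 0.05 to 1349, from 589 as deposited. It left the number of lower genes as given in each list for which the report prints a single count. Depth limits Ms4a1 most, with 0 to 59 fragments per library.

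Libraries with the same replicate number were alike for numbers 1 and 3 but not for number 4. Their deviations from the group means correlated at 0.578 (number 1), 0.757 (number 3) and -0.169 (number 4), and LIT-927 replicate 4 correlated best with vehicle replicate 1 (0.64). These values do not settle whether the numbers mark pairs. With the replicate block the difference was -0.38 for Cd79a, -0.59 for Cd79b, -0.22 for Ms4a1, -1.10 for Jchain, -0.62 for Mzb1 and 0.09 for Pigr, with 0 genes called and 627 at an unadjusted p under 0.05.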
